A study of Mus musculus with 16 samples.

Results

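Atoh1, Spdef and Muc2 are genes of the secretory lineages of the intestinal epithelium (goblet, Paneth, enteroendocrine and tuft cells), and their chromatin was followed here in embryonic epithelium, adult stem cells and enterocytes. No library was sorted for secretory cells. The measure was H3K27ac, acetylation of lysine 27 on histone H3, found at enhancers and promoters in use and mapped here by ChIP-seq. The rule took every called peak that overlapped a fixed window on the mouse build mm9. The windows were chr6:64660000-64705000 for Atoh1 (45 kb), chr17:27830000-27890000 for Spdef (60 kb) and chr7:148855000-148930000 for Muc2 (75 kb). Of 369142 peaks called in 8 libraries, 95 met the rule, namely 43 at Atoh1, 47 at Spdef and 5 at Muc2.

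The 4 groups of 2 libraries were small-intestinal epithelium of embryos at stage E12.5 and of embryos at E14.5 (days of gestation), adult Lgr5-positive intestinal stem cells (ISC) and adult enterocytes. All mice had a mixed C57BL/6 CD1 background. Both adult cell types came from Lgr5EGFP-Cre-ERT males at postnatal day 60, in which the Lgr5 locus drives EGFP, and ISC were taken as the cells with high EGFP. The genotype and sex of the embryos, and whether animals were pooled, are not given in the sources used here. Embryonic cells and enterocytes were gated as EpCAM-positive, CD31-negative and CD45-negative, which keeps epithelium and removes endothelium and leukocytes. That gate holds no marker that parts absorptive from secretory cells. The labelled cell types were not checked against their marker genes, because the gene positions supplied are not on mm9. The ChIP libraries held 34.6 to 54.6 M tags, 35614 to 52510 peaks and 38.8 to 76.1 Mb of covered sequence. ISC replicate 2 had the most covered sequence (76.1 Mb, against 51.2 Mb in ISC replicate 1), and the enterocyte libraries the least. As the cells were measured in bulk, fewer cells with the mark and less of the mark per cell cannot be told apart.

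Atoh1 is a basic helix-loop-helix transcription factor that commits progenitors to goblet, Paneth and enteroendocrine fates, and Notch signalling keeps it off in cells that become absorptive. Spdef is an ETS transcription factor that acts downstream of Atoh1 in the maturation of goblet and Paneth cells. Muc2 encodes the gel-forming mucin that goblet cells secrete as the main component of intestinal mucus.

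The sequences before the 3 transcription starts are shown because the windows were drawn around these genes, and because the sequences differ in their number of CG dinucleotides. Their shares of G and C were close, at 55.6% for Atoh1, 52.8% for Spdef and 53.2% for Muc2 (median of all stretches 52.4%). They are the 250 bases upstream of each start in RefSeq on GRCm38.p6, a later build than that of the peaks. Which peak lies at each start was therefore not determined. Each runs 5′ to 3′ on the gene's strand, with capitals on matches to the motifs searched on both strands: CANNTG (the E-box of basic helix-loop-helix factors), CACNAG (the N-box of Hes factors) and CTTTGAT (the Tcf/Lef site of Wnt signalling).
Atoh1, chr6:64728875-64729124, plus strand: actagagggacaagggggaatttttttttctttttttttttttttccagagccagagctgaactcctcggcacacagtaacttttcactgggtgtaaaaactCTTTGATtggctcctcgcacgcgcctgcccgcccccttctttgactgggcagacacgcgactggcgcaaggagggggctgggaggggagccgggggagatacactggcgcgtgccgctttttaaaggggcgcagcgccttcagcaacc
Spdef, chr17:27728952-27729201, minus strand: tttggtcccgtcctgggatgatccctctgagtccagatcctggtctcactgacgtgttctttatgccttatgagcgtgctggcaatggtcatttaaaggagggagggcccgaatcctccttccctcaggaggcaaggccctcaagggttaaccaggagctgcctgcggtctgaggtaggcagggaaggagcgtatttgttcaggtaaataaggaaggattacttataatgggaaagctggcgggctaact
Muc2, chr7:141690090-141690339, plus strand: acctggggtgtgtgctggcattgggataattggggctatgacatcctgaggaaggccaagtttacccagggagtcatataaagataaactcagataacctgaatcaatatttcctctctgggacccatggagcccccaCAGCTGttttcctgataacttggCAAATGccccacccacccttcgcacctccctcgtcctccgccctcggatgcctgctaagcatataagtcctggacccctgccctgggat

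The Atoh1 stretch held 14 CG dinucleotides, more than 70.6% of 32841 RefSeq promoter stretches of this length. The Spdef stretch held 7 and the Muc2 stretch 4, where the median stretch held 6. The only match in the Atoh1 stretch was 1 CTTTGAT, a motif found in 3.21% of all stretches. The Muc2 stretch had 2 E-boxes, CAGCTG and CAAATG, and E-boxes occur in 66.2% of all stretches. None of the motifs was found in the Spdef stretch, and CACNAG, present in 36.7% of all stretches, was found in none of the 3. These matches describe the letters only.

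The 3 loci had called H3K27ac peaks in different libraries. Atoh1 had no peak in E12.5 replicate 1 and 4 in E12.5 replicate 2. It had several peaks in each E14.5 and ISC library and none in the enterocyte libraries. By mean covered length, Spdef stood highest at both embryonic stages, lower in ISC and lowest in enterocytes. Peaks are calls past a threshold, so the lack of a peak does not show that the mark is absent. Muc2 had no peak in 7 of the 8 libraries.

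**Figure D1:**
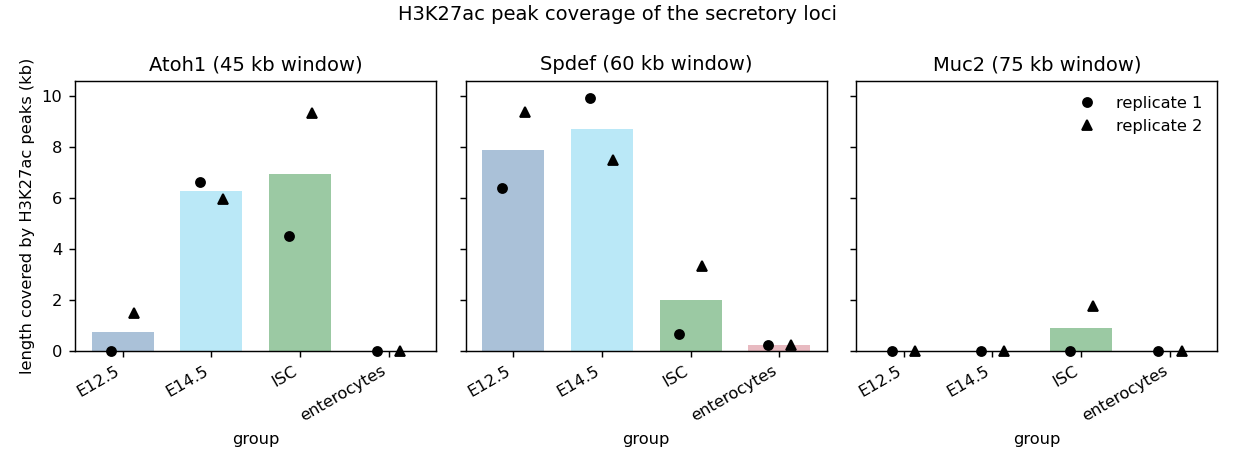
Length covered by H3K27ac peaks (kb, vertical axis) in the windows of Atoh1, Spdef and Muc2 for each group (horizontal axis). Bars are means of 2 libraries and points the libraries: Atoh1 reached 4.53 to 9.36 kb in the E14.5 and ISC libraries and 0 in those of enterocytes, Spdef 6.39 to 9.92 kb in the embryo, and Muc2 1.77 kb in ISC replicate 2 alone.

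At Atoh1, the 2 E12.5 libraries had 0 and 1.47 kb covered by peaks, the E14.5 libraries 6.63 and 5.96 kb, the ISC libraries 4.53 and 9.36 kb, and the enterocyte libraries 0 and 0 kb. Every E14.5 and ISC library lay above every E12.5 and enterocyte library. By group mean the order was ISC (6.95 ± 3.42 kb, SD, n = 2), E14.5 (6.29 ± 0.479 kb), E12.5 (0.736 ± 1.04 kb) and enterocytes. ISC and E14.5 overlapped, and E12.5 replicate 1 was at 0 like the enterocytes. Among the 20501 windows of 45 kb with a peak in at least 2 libraries, the Atoh1 mean stood at the 32.9th percentile for E12.5, the 86.9th for E14.5 and the 86.8th for ISC. In enterocytes it shared the value 0 with 38.4% of those windows.

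At Spdef, the E12.5 libraries had 6.39 and 9.40 kb, the E14.5 libraries 9.92 and 7.51 kb, the ISC libraries 0.670 and 3.35 kb, and the enterocyte libraries 0.219 and 0.243 kb. The embryonic stages overlapped each other and lay above both adult groups, and both ISC libraries lay above both enterocyte libraries. By group mean the E14.5 libraries came first with 8.72 ± 1.70 kb, then those of E12.5 with 7.89 ± 2.13 kb, of ISC with 2.01 ± 1.90 kb and of enterocytes with 0.231 ± 0.0170 kb (SD, n = 2 each). Among 17493 windows of 60 kb, Spdef stood at the 91.3rd percentile for E12.5, the 89.7th for E14.5, the 52.5th for ISC and the 41.1st for enterocytes. Of those windows 37.0% were at 0 in enterocytes and 19.4% in ISC, so the enterocyte rank lies little above the empty windows.

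At Muc2, ISC replicate 2 had 5 peaks covering 1.77 kb, and the other 7 libraries had none. The peaks were 219 to 511 bp long, with −log10 q of 3.5 to 6.1, and stood at the 8.39th to 26.9th percentile of their own list. They lay in a group of 3 at chr7:148857264-148859291 and a pair at chr7:148876319-148877629. None had −log10 q of at least 10, and none was among the best 35614 peaks of its list, the number in the smallest list. With a peak in 1 library only, the window did not pass the filter and was not tested. Without the filter, limma gave a change of 0.91 ± 0.53 (standard error) for ISC against E14.5 (adjusted p = 0.253).

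**Figure D2:**
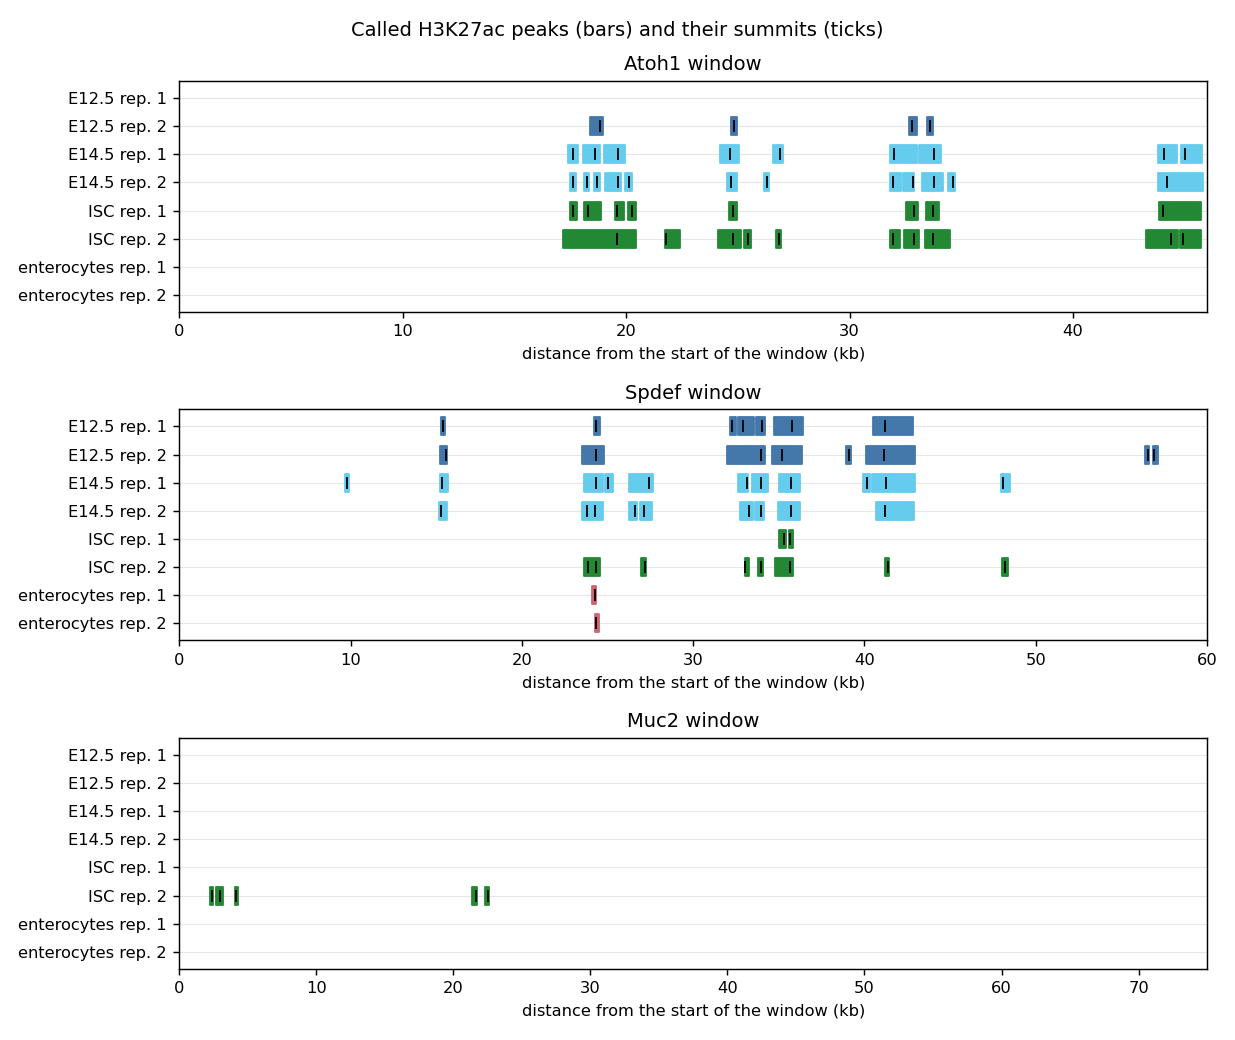
Called peaks (bars) and their summits (ticks) in each library (rows) by distance from the start of the window (kb, horizontal axis). The same positions recur at Atoh1 in E14.5 and ISC and at Spdef in the embryo, and both enterocyte libraries hold only 1 Spdef peak each, at 24.3 kb.

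The Atoh1 peaks of all libraries merged into 9 regions, of which 6 reached 500 bp in some library. Of the 9, 5 were in at least 4 libraries, none was in all 8, and 3 were in 1 library.

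The longest Atoh1 region, chr6:64677176-64680457, held 2197 and 1847 bp of peaks at E14.5 and 1853 and 3258 bp in ISC. In E12.5 replicate 2 it held 590 bp, and in the remaining libraries none. It was 1 long peak in ISC replicate 2 and 3 to 5 shorter peaks in ISC replicate 1 and the E14.5 libraries, and the strongest summits of the 5 libraries spread over 1379 bp.

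The region at the far end of the window, chr6:64703268-64705798, was absent from both E12.5 and both enterocyte libraries. It held 1776 and 1999 bp at E14.5 and 1865 and 2384 bp in ISC, with strongest summits within 360 bp of each other. It runs past the window's end, so only its part inside the window entered the covered length.

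Between them lay 3 more regions that were found in both E14.5 libraries, both ISC libraries and E12.5 replicate 2. The first, chr6:64684101-64685135, held 809 and 417 bp at E14.5, 377 and 1035 bp in ISC, and 254 bp in E12.5 replicate 2. Its strongest summits lay within 178 bp. The neighbours chr6:64691802-64693088 and chr6:64693109-64694728 held 570 to 1211 bp and 593 to 1272 bp in the E14.5 and ISC libraries, against 361 and 266 bp in E12.5 replicate 2. In the last of these the strongest summits lay within 169 bp. The sixth region, chr6:64681744-64682430, was in ISC replicate 2 alone.

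The Spdef peaks merged into 12 regions, 7 of them with 500 bp or more in some library. The longest, chr17:27869924-27872961, held 2330 and 2891 bp at E12.5, 2925 and 2252 bp at E14.5, 0 and 219 bp in ISC, and none in enterocytes. It carried the strongest peak of the window in every embryonic library, and the strongest summits of the 5 libraries with it lay within 197 bp. Every embryonic library thus covered at least 2252 bp of it and no adult library more than 219 bp.

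The most widely shared Spdef region was chr17:27853512-27854804, found in 7 libraries with strongest summits within 81 bp. It held 340 and 1275 bp at E12.5, 1109 and 1153 bp at E14.5, 0 and 851 bp in ISC, and 219 and 243 bp in enterocytes. This was the only Spdef region with a peak in enterocytes, and ISC replicate 1 was the library without it.

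A further Spdef region, chr17:27864624-27866420, was the only one in both ISC libraries, with 670 and 1079 bp. It held 1680 and 1743 bp at E12.5 and 1256 and 1279 bp at E14.5, and none in enterocytes. Its neighbour chr17:27861970-27864352 held 1819 and 2208 bp at E12.5, 1505 and 1288 bp at E14.5, and 513 bp in ISC replicate 2 alone among the adult libraries. Of the remaining 3, chr17:27856260-27857679 appeared at E14.5 (1420 and 1109 bp) with 319 bp in ISC replicate 2. The region chr17:27845177-27845708 was present in the 4 embryonic libraries alone, with 217 to 519 bp. The region chr17:27877971-27878478 held 508 bp in E14.5 replicate 1 and 373 bp in ISC replicate 2.

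**Figure D3:**
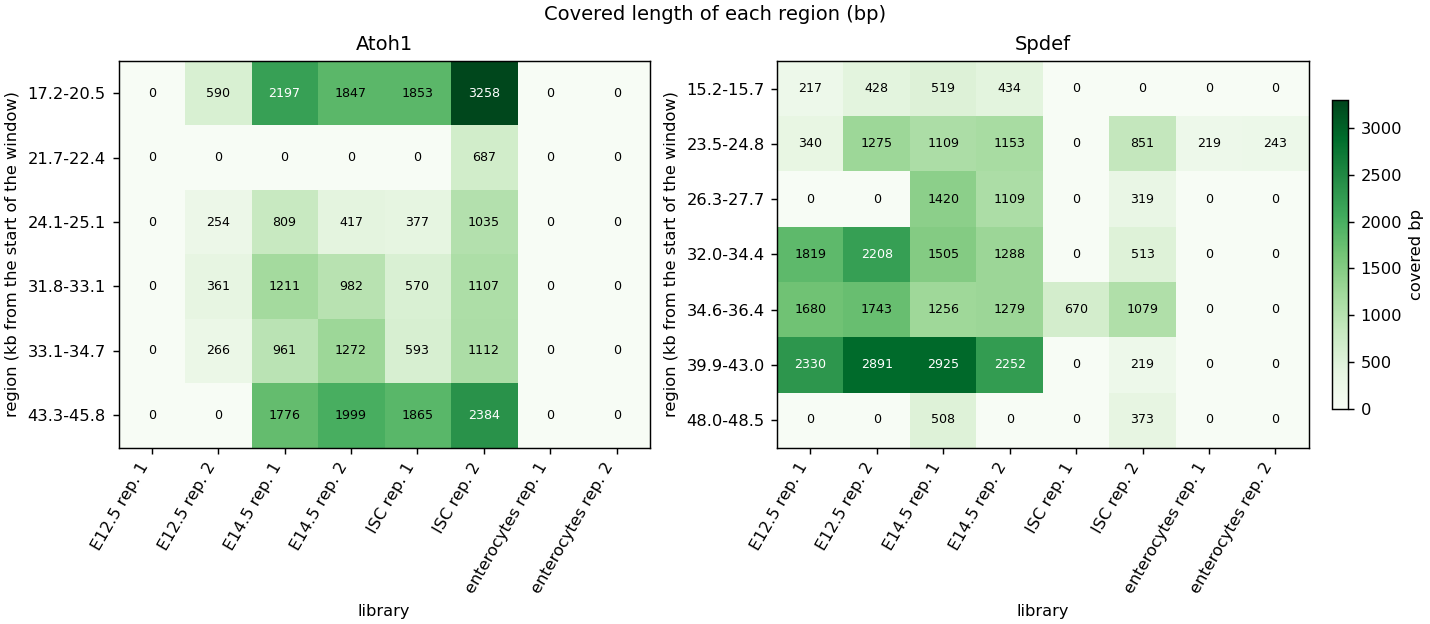
Covered bp (colour and printed number) of the Atoh1 and Spdef regions of at least 500 bp (rows, named by their kb from the window's start) in each library (columns). Of the 6 Atoh1 regions, 5 have peaks in all E14.5 and ISC libraries and 1 in ISC replicate 2 alone, and of the 7 Spdef regions, 5 have peaks in all 4 embryonic libraries and 6 in ISC replicate 2.

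The peaks at the 3 loci were mostly of low to middling rank. A library's list was ranked by −log10 q, the authors' score for each peak, which describes peaks within that list only. The median Spdef peak stood at the 31.0th percentile of its own list and the median Atoh1 peak at the 34.2nd. The highest were the peak at 41.2 kb in the Spdef window of E12.5 replicate 2 (86.0th percentile, −log10 q of 55.2) and the peak at 33.8 kb in the Atoh1 window of E14.5 replicate 2 (65.8th percentile, 24.0). The best Spdef peak of ISC replicate 1 stood at the 22.2nd percentile, and those of enterocytes at the 16.9th and 8.05th. The median peak was 570 bp long at Atoh1, 508 bp at Spdef and 356 bp at Muc2, against 702 bp over all peaks.

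**Figure D4:**
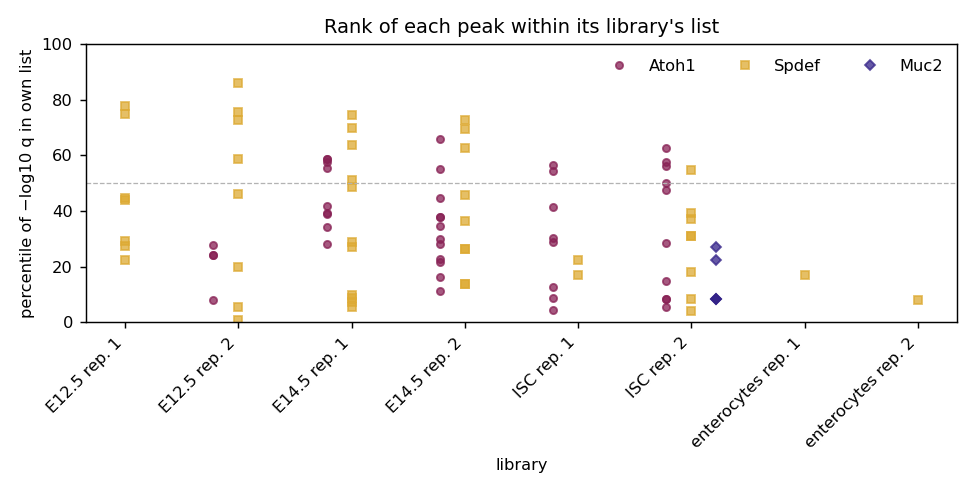
Percentile of each peak's −log10 q within its own library's list (vertical axis, 100 is the strongest) by library (horizontal axis) for Atoh1, Spdef and Muc2. No Atoh1 peak stands above 65.8, the best Spdef peaks reach 72.7 to 86.0 in the embryo, and the Muc2 peaks lie at 26.9 or below.

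The E14.5 libraries were first compared with those of E12.5, the earlier stage of gut epithelium, by their called peaks. Covered length at Atoh1 rose, to 6.63 and 5.96 kb at E14.5, against 0 and 1.47 kb at E12.5. The change was 2.67 ± 0.56 (standard error) in log2(covered bp + 500) after scaling each library to the same total covered length (limma, adjusted p = 0.0172). Of all windows of 45 kb, 27.7% were called in either direction in this comparison, and the median change was −0.02. The call was lost without E14.5 replicate 1 (2.66, adjusted p = 0.0924), without E14.5 replicate 2 (2.64, adjusted p = 0.103) and with 100 bp added in place of 500 (3.91, adjusted p = 0.0691). The change was 1.74 without E12.5 replicate 1, a fit that leaves 1 E12.5 library and no spread within E12.5. With 2000 bp added it was 1.55, past the threshold. Of the 11 regions merged from these 4 libraries at Atoh1, 3 were gained, meaning present in both E14.5 libraries and neither E12.5 library, and none was lost. The gained ones were chr6:64677380-64677844, chr6:64678987-64679927 and chr6:64703800-64705798, and the 590 bp peak of E12.5 replicate 2 lay between the first and the second. Over the genome 12.45% of regions were gained and 5.84% lost. The Atoh1 count depended on the libraries and the peak set. It was 8 without E14.5 replicate 1, 5 without E14.5 replicate 2 and 7 without E12.5 replicate 2. With equal peak numbers or with 50% of a region required it was 6. Here and below, genome shares of gained and lost regions were computed for the main counts only and do not apply to the alternatives. Leaving out a library asks less of a region anywhere in the genome.

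Spdef did not change detectably between these stages, with −0.09 ± 0.38 (limma, adjusted p = 0.935), where 28.3% of windows of 60 kb were called. Its region at chr17:27856260-27857679 was gained, 1 of 12 there, and none was lost, beside 12.45% gained and 5.84% lost over the genome. The count gained was 2 without E14.5 replicate 1 and 4 without E14.5 replicate 2. It was 0 with −log10 q of at least 10, with equal peak numbers or with peaks within 1 kb merged.

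In ISC against E14.5 epithelium, the window of Spdef passed the test and that of Atoh1 did not. Spdef fell to 0.670 and 3.35 kb in ISC, against 9.92 and 7.51 kb at E14.5, a change of −2.13 ± 0.38 (limma, adjusted p = 0.00601), where 41.6% of windows of 60 kb were called and the median change was −0.08. Atoh1 had 4.53 and 9.36 kb in ISC and 6.63 and 5.96 kb at E14.5, a change of 0.01 ± 0.56 (limma, adjusted p = 1), where 40.6% of windows of 45 kb were called. The difference between the changes of the 2 genes was not tested. By presence alone, 1 of the 10 Spdef regions was lost (the one at chr17:27845177-27845708) and none gained, beside 13.46% lost and 9.63% gained over the genome. The Spdef count lost was 5 without ISC replicate 2, 4 without E14.5 replicate 2, 2 without E14.5 replicate 1, 4 with 50% of a region required and 2 with −log10 q of at least 10. None of the 9 Atoh1 regions was gained or lost. The Atoh1 count gained was 2 without ISC replicate 1, and the count lost was 1 without E14.5 replicate 1. ISC replicate 2 had peaks in 6 of the 7 Spdef regions described above and ISC replicate 1 in 1 of them.

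Enterocytes are the absorptive descendants of ISC. Atoh1 fell to 0 in both enterocyte libraries, against 4.53 and 9.36 kb in ISC, a change of −3.61 ± 0.56 (limma, adjusted p = 0.00374). Of all windows of 45 kb, 40.2% were called, with a median change of −0.02, and 0.639% had a more negative change than Atoh1. With enterocytes at 0 the size of this change is set by the bp added, and it was −5.84 with 100 bp and −1.93 with 2000 bp, both past the threshold. Of the 9 Atoh1 regions, 5 were lost and none gained, beside 18.29% lost and 5.65% gained over the genome. The other 4 were in ISC replicate 2 alone. The count lost was 10 without ISC replicate 1, 8 without ISC replicate 2, 2 with −log10 q of at least 10 and 3 with equal peak numbers. Regions were merged anew under each alternative, so a count can exceed the 9 above, and the 18.29% does not apply to these counts. No alternative gave a gain, since enterocytes had no peak there.

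Spdef had 0.219 and 0.243 kb in enterocytes and 0.670 and 3.35 kb in ISC, a change of −1.18 ± 0.38 that did not pass the threshold of 0.05 (limma, adjusted p = 0.0509; 41.2% of windows of 60 kb called). It passed with 100 bp added (−1.75, adjusted p = 0.0422). It was smaller, and did not pass, with −log10 q of at least 10 (−0.41, adjusted p = 0.413) and with 2000 bp added (−0.57, adjusted p = 0.0724). Over the alternatives that left out no library the adjusted p lay between 0.0422 and 0.413. The change was −1.81 without ISC replicate 1 and −0.54 without ISC replicate 2. Each of these fits leaves 1 ISC library and holds no spread within ISC, so only the size is given. Of 8 Spdef regions, 1 was lost, at chr17:27864776-27865854, beside the same 18.29% over the genome. That count was 7 without ISC replicate 1, 2 without ISC replicate 2 and 0 with −log10 q of at least 10.

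**Figure D5:**
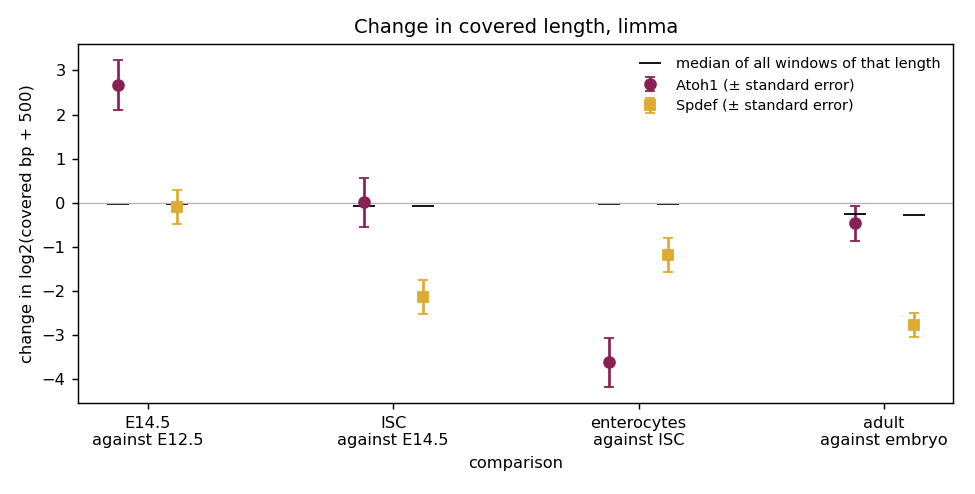
Change in log2(covered bp + 500) (vertical axis, points with standard errors) of the Atoh1 and Spdef windows in the 4 comparisons (horizontal axis), with the median of all windows of the same length (black dashes). Atoh1 stands at 2.67 for E14.5 against E12.5 and at −3.61 for enterocytes against ISC, Spdef at −2.13 for ISC against E14.5 and at −2.76 for adult against embryo.

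Adult and embryonic epithelium were also compared over all 8 libraries. Spdef covered 1.12 ± 1.50 kb in the 4 adult libraries and 8.31 ± 1.65 kb in the 4 embryonic ones (SD), lower in 4 of 4 adult libraries. Limma gave a change of −2.76 ± 0.27 (adjusted p = 0.000239; −1.81 with 2000 bp added), where 69.7% of windows of 60 kb were called and the median change was −0.27. An exact two-sided permutation test of the covered length gave p = 0.0286, the smallest that 4 against 4 libraries allow, and it treats replicates as no more alike than other libraries. Of 12 Spdef regions 1 was lost, beside 5.08% of regions lost and 1.95% gained over the genome. It was 3 without ISC replicate 2, and 2 with −log10 q of at least 10 or with 50% of a region required.

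Atoh1 averaged 3.47 ± 4.47 kb in the adult and 3.51 ± 3.28 kb in the embryo. Each mean joins 1 group with several peaks in every library and 1 group with few called peaks or none. The change was −0.46 ± 0.40 (limma, adjusted p = 0.342, with 68.6% of windows of 45 kb called; exact permutation p = 1). Without E12.5 replicate 1 the change was −0.94, from a fit that leaves 1 E12.5 library and holds no spread within E12.5. Muc2 averaged 0.444 ± 0.887 kb in the adult and 0 in the embryo. With peaks in 1 library only, every split of the libraries gives the same absolute difference. The exact permutation p of 1 for Muc2 was therefore fixed in advance and says nothing about a difference.

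Windows elsewhere in the genome had much the same profile over the 8 libraries. The 2 windows of 45 kb nearest to Atoh1 in covered length were chr9:60565001-60610000 (distance 2.42 kb, Pearson r = 0.98 over 8 libraries) and chr1:166450001-166495000 (2.45 kb, r = 0.97). For Spdef they were chr2:118310001-118370000 (1.79 kb, r = 0.99) and chr10:116510001-116570000 (1.81 kb, r = 0.99). For Muc2 they were chr9:122080001-122155000 (0.027 kb) and chr2:24130001-24205000 (0.028 kb), both with peaks in ISC replicate 2 alone. The distance is Euclidean over covered kb, libraries of a group are not independent points, and the windows were picked for this likeness.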

How the data were processed

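H3K27ac ChIP-seq peak lists of 8 libraries (4 groups of 2) were used. The 8 inputs entered as controls of the calls. The build mm9 and the tools SAMtools 1.2, Bowtie 1.1.2, bcl2fastq 1.8.4 and MACS2 are named in the submitters' processing notes. Per the file headers, MACS 2.1.0.20140616 called narrow peaks in each library against its own input at q of 0.05, from files with duplicates removed. The deposited pileup (a coverage signal), the −log10 p and q values and the fold enrichment ratio are MACS output, per the file headers. Peaks were ordered or filtered by them inside 1 list at a time, never across lists. Read counts were not used, so precision rests on 2 libraries a group. Nothing states that replicates came from separate animals beyond the series' term biological duplicates, so a p-value here reflects how far these libraries spread, which may be technical.

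Covered length was the bp of peaks inside a window. For each locus the genome was laid out in windows of the locus' own length, with the locus as 1 of them. Kept windows held peaks of 2 or more libraries. Covered bp were scaled so that all libraries had the same total and fitted as log2(covered bp + 500) with limma 3.58.1 in R 4.3.3 (eBayes with trend and robust). The fit had 4 group means and 4 residual degrees of freedom, and Benjamini-Hochberg adjustment ran over all windows of that length. The size of a change depends on the 500 bp added, most where a group is at 0. Comparisons share groups (E14.5 and ISC each stand in 2 steps and again in adult against embryo) and are not independent. The code was tested on simulated data. Merged regions touch or overlap, and a library has a region with at least 1 bp of peak. Adult and embryonic libraries were compared by exact two-sided permutation tests.

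All 3 loci are named throughout, with regions of at least 500 bp in some library and the 2 likest windows at least 1 Mb away. The gene and promoter tables are on GRCm38.p6 and coordinates were not converted, so the planned list of other secretory genes and the cell type markers were not analysed here. All 3 genes matched the promoter table. The members, windows and tests were chosen with earlier results of these data known. Alternatives were a stricter q, equal peak numbers, other pseudocounts, no scaling, no filter, other limma options, merging within 1 kb, 50% cover, the replicate block and leaving out each library, where a lone library is assumed to vary like the other groups.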

Additional observations from a re-analysis of the deposited data

Results flagged for a closer look

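ISC replicate 2 had the most covered length of the 4 adult libraries at Spdef and at Muc2, by gaps past Dixon's critical value for 4 samples. At Spdef it covered 3.35 kb, against 0.670 kb in ISC replicate 1 and 0.219 and 0.243 kb in enterocytes, and the gap to the next library was 0.856 of the range of the 4 adult libraries. At Muc2 it covered 1.77 kb and the other 3 adult libraries 0. There the gap is the whole range for any covered length above 0, so the Muc2 flag could not fail. The same library had the most covered sequence of all 8, with 76.1 Mb, and its part in these values was not tested. Scaled to equal totals, Spdef had 2.37 kb in ISC replicate 2 and 0.704 kb in ISC replicate 1, and the gap of 0.806 of the range no longer passed. About 1 in 20 groups of 4 like samples would pass by chance, and 6 groups were examined, of which that of Muc2 in the embryo had no range. That rate does not hold here, because each group of 4 joins 2 cell types or stages.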

How the results depend on the processing

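Of 136 limma values for Atoh1 and Spdef under the alternatives, 122 kept their direction and their side of the threshold. The fall of Atoh1 in enterocytes against ISC and those of Spdef in ISC against E14.5 and in adult against embryo were among them under every alternative, with adjusted p of at most 0.0281, 0.0477 and 0.00257. The Atoh1 rise at E14.5 had 1.55 to 3.91 over all alternatives (adjusted p 0.000221 to 0.103) and was lost with 100 bp added (3.91); leaving out a library gave 1.74 to 3.58. Uncalled changes turned sign: Atoh1 in ISC against E14.5 with equal peak numbers (−0.17; −0.20 to 0.23 with a library left out), Atoh1 in the adult with −log10 q of at least 10 (0.16; −0.94 to 0.01), and Spdef at E14.5 without scaling (0.15; −0.19 to 0.01). Spdef in enterocytes against ISC passed with 100 bp added (−1.75; −1.81 to −0.54 with a library left out). In the permutation tests, the Atoh1 difference of adult minus embryo was 0.756 kb with −log10 q of at least 10 and −2.0 to 1.12 kb with a library left out, with p of at least 0.4. For Spdef p was 0.0286 to the same precision in each, the smallest these tests allow. With a library left out it could not move, because every embryonic library lay above every adult one. The replicate block changed no call (Atoh1 at E14.5 2.67, adjusted p = 0.0178). Equal replicate numbers share only a number: deviations of same-numbered libraries correlated at −0.18 to 0.21. Counts of gained and lost regions were less stable: of 52 alternatives to a count above 0, 25 moved it by over 1.5 times. The genome shares of such regions were not computed under the alternatives. The 2 libraries a group and the lack of read counts limit every value.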
